A study of Mus musculus with 6 samples.

Results

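The genes of the translation initiation factors were followed in cultured mouse cortical cells after knockdown of Ybx1, an RNA-binding protein that recognises 5-methylcytosine in mRNA. Members were chosen by symbol only, as every row of the deposited table whose gene symbol begins with Eif and a digit from 1 to 6, and 54 of the 17920 genes listed met this rule once the sex-linked genes Eif2s3x and Eif2s3y had been set aside. The 3 libraries called WT in the labels came from cells infected with a control shRNA (short hairpin RNA) lentivirus, and the 3 libraries called KD came from cells infected with an shRNA lentivirus against Ybx1. Per the methods of the study, both kinds of cell were cultured from the mouse cortex at E13.5 (the embryonic day) and selected with puromycin, to which only infected cells are resistant. Since the labels name brain tissue and the series text mentions deletion of the gene, the samples are described here as knockdown cultures on the strength of the methods. Neither the strain nor the hairpin used for these libraries is given in the sources used here. The methods call the replicates independent experiments, but the labels do not say that the cultures were separate, and p-values otherwise measure only the spread between these libraries.

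Translation of an mRNA begins when a small ribosomal subunit carrying the initiator tRNA is brought to its capped 5′ end and scans to the start codon. The factor eIF4F recognises the cap through the cap-binding protein eIF4E, the scaffold eIF4G and the helicase eIF4A, while eIF2 delivers the initiator tRNA, eIF3 holds the small subunit and joins it to eIF4G, and eIF1, eIF1A, eIF5 and eIF5B act in start codon choice and subunit joining. Control is best known at the cap and at eIF2. The eIF4E-binding proteins (the Eif4ebp genes) keep eIF4E from eIF4G, and the eIF2α kinases (the Eif2ak genes) restrain eIF2B, the factor that recharges eIF2 with GTP.

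Ybx1 itself checked the labels. It was at 618, 615 and 653 CPM (counts scaled to 1e+06 in each library) in WT replicates 1, 2 and 3 and at 98.3, 92.2 and 159 CPM in the KD replicates, which is 15.6%, 14.7% and 25.3% of the WT mean. Library totals were nearly equal, between 16294635 and 16497505 estimated counts, and initiation factor genes took between 0.893% and 0.953% of a library. Markers of the cortical lineage were present. The 8 radial glia genes summed to 3068 to 3435 TPM (a level scaled by transcript length) in WT. In KD they summed to 3486 to 3771 TPM, where Pax6 and Hes1 were higher and the other 6 did not pass. Most of the sum was Fabp7, at 2368 to 2705 TPM in WT and 2728 to 2842 TPM in KD, which was among those that did not pass. The 4 intermediate progenitor genes listed, Eomes, Neurog2, Btg2 and Insm1, were all higher in KD, with summed levels of 97.3 to 121.7 TPM against 43.0 to 55.2 TPM in WT. Among other cell types, 2 of 7 neuron genes and 1 of 4 interneuron genes were higher. So was 1 of 3 mural and meningeal genes tested, and 1 of 4 oligodendrocyte precursor genes was lower. Marker counts are to be read against all genes tested, of which 12.0% were higher and 11.9% lower. The interneuron genes summed to 317 to 462 TPM in WT and 355.5 to 514 TPM in KD. The oligodendrocyte precursor genes summed to 303 to 408 TPM in WT and 260 to 328 TPM in KD. The 4 endothelial genes and Hba-a1 of erythroid cells stayed below 1 TPM in every library, and 5 microglia genes summed to at most 6.18 TPM. These marker differences moved with the knockdown, and their part in the results below was not tested. In bulk RNA, fewer cells of a type and less RNA per cell cannot be told apart.

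Of the 54 genes, 52 passed the filter on low counts. Eif4a3l1 and Eif4e1b did not, with at most 1 count in any library. Among the 52, 10 genes were higher in KD and 6 were lower by edgeR's quasi-likelihood test at an adjusted p under 0.05 over 13669 genes, while 36 did not pass. The lower genes numbered 3 without WT replicate 1, WT replicate 2, KD replicate 1 or KD replicate 2, and 4 without KD replicate 3. They numbered 7 without WT replicate 3, and 8 where replicates were blocked by number. Over all genes, 1631 were lower with all libraries and no block. That number was 797 to 1583 with 1 library left out and 2470 with the block. With all libraries and no block, the share called was 30.8% of the 52 genes and 24.0% of all genes tested. Of all genes tested, 12.0% were higher and 11.9% lower. In CPM, the 3 KD libraries lay wholly above the 3 WT libraries for 13 genes and wholly below them for 11. Of all genes tested, the shares were 21.0% and 20.6%, or 41.6% in either direction. The median log2 fold change over the 52 genes was 0.01, and over all genes it was 0.00. Fold changes were small, and all those past the threshold lay between -0.49 and 0.42 on the log2 scale.

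**Figure D1:**
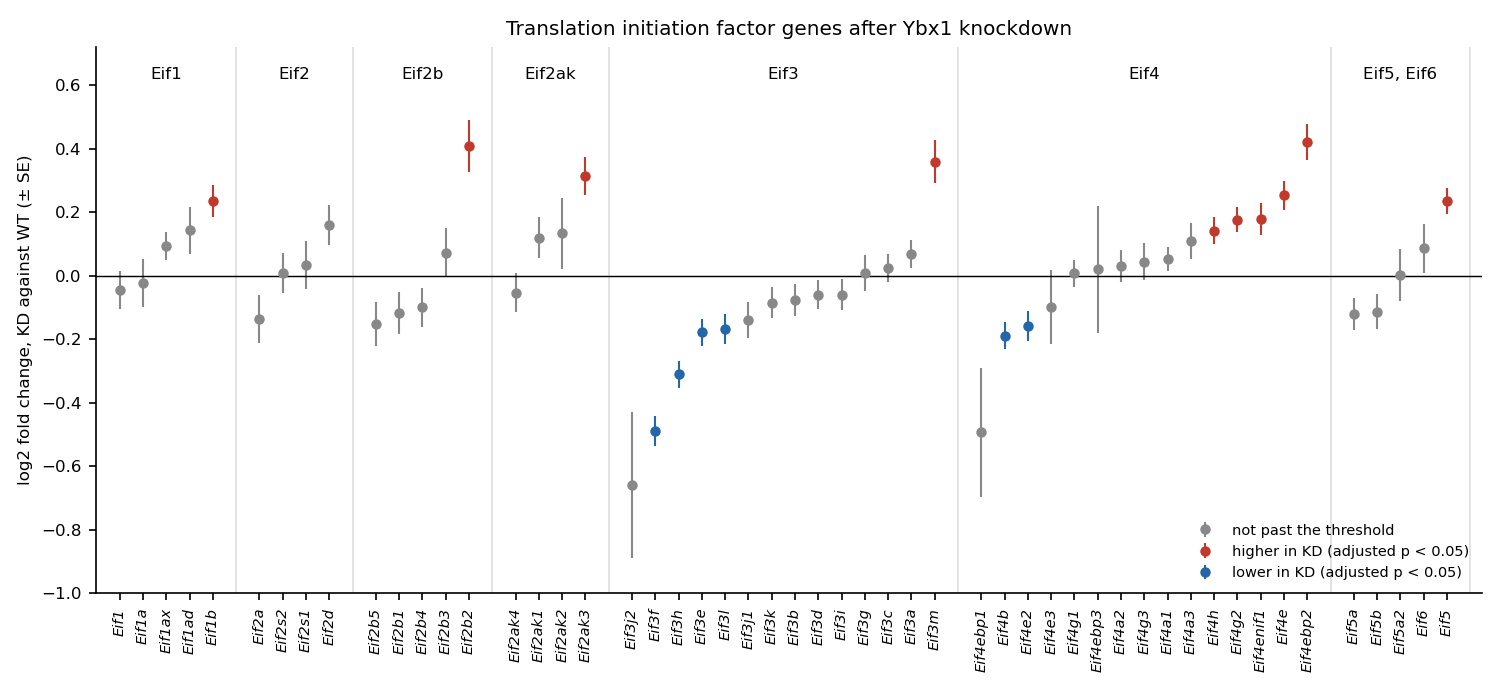
Log2 fold change of KD against WT (vertical axis, bars ± SE) for the 52 initiation factor genes tested, grouped by family and ordered within it, with 3 libraries per group. Red points (10 genes) were higher and blue points (6 genes) lower at an adjusted p under 0.05 in edgeR, and grey points did not pass. The Eif3 genes run from -0.66 for Eif3j2 to 0.36 for Eif3m.

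The Eif3 genes encode the subunits of the largest initiation factor, and they held 4 of the 6 genes that were lower in KD. Eif3f, Eif3h, Eif3e and Eif3l were lower, Eif3m was higher and the other 9 of 14 did not pass the threshold. All 5 genes past the threshold encode subunits of the octamer of PCI and MPN domain proteins at the core of eIF3, which is made of the products of Eif3a, Eif3c, Eif3e, Eif3f, Eif3h, Eif3k, Eif3l and Eif3m. None of the 6 remaining genes, Eif3b, Eif3d, Eif3g, Eif3i, Eif3j1 and Eif3j2, passed, although Eif3j2 did with the replicate number as a block (edgeR adjusted p = 0.0114). This split was made after the values were seen and carries no test. Of all genes tested 24.0% were called, and the calls of Eif3e and Eif3l were lost on the TPM scale.

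The letters around the transcript starts of several of these genes are shown first, because many mRNAs of the translation machinery belong to the 5′ terminal oligopyrimidine class, which begins with C and continues with a run of C and T. Each line gives 15 bases before the start and 15 bases from it, 5′ to 3′ on the strand of the gene, from RefSeq on GRCm38.p6, with the longest run of C or T in capitals. The octamer genes with an entry are given together with Eif4b, which was also lower in KD, and with Eif2b5, which had the longest run of all the genes considered here. Eif3e and Eif3h, both lower in KD, had no entry.
Eif3f, chr7:108934400-108934429, + strand: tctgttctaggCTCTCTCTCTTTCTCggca
Eif3l, chr15:79075208-79075237, + strand: gcgcggagTTCTTCTTCCgctctctcccac
Eif3m, chr2:105017013-105017042, - strand: TTTTCCggtcggcgtgtttctggatcggag
Eif3a, chr19:60790679-60790708, - strand: cggggCTCgggcggcggcgctgccgccgcg
Eif3c, chr7:126566352-126566381, - strand: CTCacctgctcagagggactcggcagctta
Eif3k, chr7:28981874-28981903, - strand: aaaacaaCCggcgctggtgctgaaagcgcc
Eif4b, chr15:102073758-102073787, + strand: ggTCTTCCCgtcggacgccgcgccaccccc
Eif2b5, chr16:20498802-20498831, + strand: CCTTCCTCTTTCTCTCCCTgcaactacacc
The run covered the start itself and was 15 bases long in Eif3f and 10 bases long in Eif3l, both lower in KD. It was 6 bases long and ended before the start in Eif3m, which was higher. In Eif2b5 a run of 19 bases covered the start, and that gene did not pass the threshold. The runs of Eif3f, Eif3l and Eif2b5 all began before the start, so only a part of each lies in the annotated transcript. The base at the annotated start was C in Eif3f and Eif2b5 but T, followed by C, in Eif3l. The annotated transcript of Eif3l thus does not begin as described for the class. The starts used in these cells were not mapped. A run of at least 8 bases was present in 7 of the 42 initiation factor genes with an entry (16.7%), and in 13.9% of 27025 genes with an entry. A run of that length that also covered the start was present in 3 of the 42 (7.14%), namely Eif2b5, Eif3f and Eif3l. The share was 4.44% of all genes with an entry and 4.84% of those tested. Split by direction, runs of at least 8 bases at any place in the window were present in 2 of 4 lower genes with an entry, in 3 of 9 higher genes and in 2 of 28 genes that did not pass. Those that covered the start were present in 2 of 4, 0 of 9 and 1 of 28. The longest runs of the higher genes Eif2b2, Eif4e and Eif4enif1, not shown above, were 8, 10 and 10 bases. Those of the lower genes Eif4b and Eif4e2 were 7 and 5 bases. Neither split carries a test or a share over all higher or all lower genes, and cover of the start was counted after the sequences were seen. Runs were searched on the strand of the gene only, a gene with several starts counted once by its longest run, and a run of these letters is a description of the window.

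Eif3f (Entrez Gene 66085) had the largest change of the lower genes. It was at 282, 287 and 296 CPM in WT and at 212, 197 and 207 CPM in KD. Every KD library was below every WT library, and the log2 fold change was -0.49 ± 0.05 (SE, n = 3 per group, edgeR adjusted p = 0.000488), a level 28.7% lower. Its product is a member of the octamer with an MPN domain.

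Eif3h, the partner of Eif3f with the same kind of domain, was at 289, 286 and 275 CPM in WT and at 224, 231 and 230 CPM in KD. The groups were again apart, by a log2 fold change of -0.31 ± 0.04 (SE, n = 3 per group, edgeR adjusted p = 0.0020). Eif3e, which carries a PCI domain, was at 157, 159 and 158 CPM in WT and at 138, 143 and 138 CPM in KD. This was a smaller difference of -0.18 ± 0.04 on the log2 scale (SE, n = 3 per group, edgeR adjusted p = 0.0179), and it no longer passed without WT replicate 2 (adjusted p = 0.0692), KD replicate 1 (0.057) or KD replicate 3 (0.0511), nor on the TPM scale (limma adjusted p = 0.0597). Eif3l, also a PCI subunit, was at 166, 171 and 159 CPM in WT and at 147, 150 and 145 CPM in KD. Its log2 fold change of -0.17 ± 0.05 (SE, n = 3 per group, edgeR adjusted p = 0.0328) was lost with WT replicate 1, WT replicate 2 or any KD replicate left out (adjusted p from 0.0805 to 0.124), by DESeq2 (0.0554) and on the TPM scale (0.0921).

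Eif3m, a further PCI subunit of the same octamer, went the opposite way. It was at 53.2, 47.5 and 51.2 CPM in WT and at 61.0, 64.4 and 69.5 CPM in KD. All KD libraries were above all WT libraries, with a log2 fold change of 0.36 ± 0.07 (SE, n = 3 per group, edgeR adjusted p = 0.00705), a level 28.3% higher.

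The largest octamer subunits were nearly level between the groups. Eif3a, on which the complex is built, was at 287, 298 and 308 CPM in WT and at 310, 319 and 307 CPM in KD (log2 fold change 0.07 ± 0.05, SE, n = 3 per group, edgeR adjusted p = 0.298). Eif3c was at 285, 280 and 279 CPM in WT and at 275, 291 and 294 CPM in KD, with a log2 fold change of 0.03 ± 0.04 (SE, n = 3 per group, edgeR adjusted p = 0.717). The WT and KD values overlapped for both genes. Eif3k was at 96.1, 97.0 and 96.2 CPM in WT and at 91.6, 87.3 and 93.8 CPM in KD. Its libraries did not overlap in CPM, but they did in TPM. The log2 fold change of -0.09 ± 0.05 did not pass (n = 3 per group, edgeR adjusted p = 0.235).

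Outside the octamer no gene passed with all 6 libraries and no block. Eif3b, a scaffold that binds the small subunit together with Eif3g and Eif3i, was at 185, 202 and 190 CPM in WT and at 180, 188 and 179 CPM in KD, for a log2 fold change of -0.08 ± 0.05 (SE, n = 3 per group, edgeR adjusted p = 0.299). Eif3d, Eif3g and Eif3i had log2 fold changes of -0.06, 0.01 and -0.06, and their libraries overlapped. Eif3j1 and Eif3j2 are near-identical copies with fractional counts in all 6 libraries, which arise where reads are divided between genes, so the values of each are uncertain. Eif3j1 was at 72.5, 71.2 and 65.0 CPM in WT and at 62.4, 63.3 and 63.6 CPM in KD. Its libraries did not overlap in CPM, but they did in TPM. The log2 fold change of Eif3j1 was -0.14 ± 0.06 (SE, n = 3 per group, edgeR adjusted p = 0.105). The gene passed without WT replicate 3 (-0.19, adjusted p = 0.036). Eif3j2 was at 4.25, 3.39 and 4.61 CPM in WT and at 1.98, 2.32 and 3.45 CPM in KD, with a log2 fold change of -0.66 ± 0.23 (SE, n = 3 per group, edgeR adjusted p = 0.0681, 0.0114 with the replicate number as a block and 0.0253 without KD replicate 3).

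**Figure D2:**
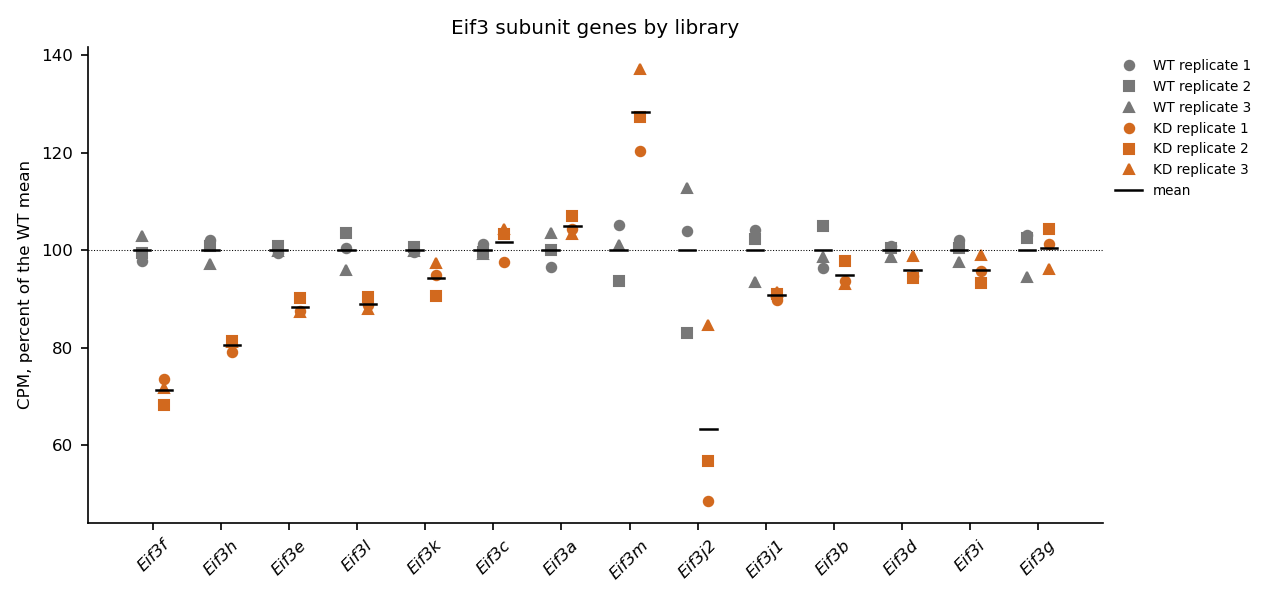
CPM of each Eif3 gene in each library, as a percent of the WT mean of that gene (vertical axis), with grey symbols for WT, orange symbols for KD, one symbol shape per replicate number and a black bar for the mean of 3 libraries. Eif3f, Eif3h, Eif3e and Eif3l sit below the WT libraries, Eif3m sits above them, and Eif3c and Eif3a overlap with them.

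The spread of levels between subunits was narrower in KD where Eif3j1 and Eif3j2 were left out. On the TPM scale Eif3h was the most abundant Eif3 transcript in WT, at 614, 600 and 593 TPM, and in KD it was at 498, 516 and 501 TPM. Eif3f followed at 461, 464 and 492 TPM in WT and 363, 339 and 346 TPM in KD. Eif3m was near the lower end, at 113, 99.5 and 110 TPM in WT and 135, 144 and 151 TPM in KD. The ratio of Eif3m to Eif3f in TPM was 0.245, 0.215 and 0.224 in WT, against 0.372, 0.424 and 0.435 in KD. Leaving out Eif3j1 and Eif3j2, the most abundant Eif3 transcript was 5.44, 6.03 and 5.38 times the least abundant in WT. In KD it was 3.775, 3.799 and 3.939 times. The least abundant was Eif3m in every WT library and Eif3a in every KD library, at 132, 136 and 127 TPM. Eif3j1 lay below these, at 67.8, 65.9 and 61.7 TPM in WT and 61.1, 62.2 and 60.7 TPM in KD. The size of the narrowing thus depends on the genes left out. Both ratios were chosen after the values were seen and carry no test. Summed over all 14 genes, Eif3 transcripts came to 3090 to 3117 TPM in WT and 2883 to 2930 TPM in KD.

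Set beside the other groups, Eif3 had 10 of 14 log2 fold changes below 0 and a median of -0.08. The 4 tested Eif2 genes had a median of 0.02 with none past the threshold, the 15 Eif4 genes had a median of 0.04 with 5 higher and 2 lower, and the 4 Eif2ak kinase genes had a median of 0.13 with 1 higher. The Eif2 median was -0.03 without WT replicate 3 and 0.06 without WT replicate 2, the Eif4 median was 0.07 without KD replicate 1, and the Eif2ak median ranged from 0.0777 (WT replicate 1 left out) to 0.172 (WT replicate 2 left out), with 0.0783 when KD replicate 2 was left out. Against 11.9% of all genes, 4 of 14 Eif3 genes were lower, and against 12.0% of all genes, 5 of 15 Eif4 genes were higher. Of those 4 Eif3 genes, only Eif3f and Eif3h stayed lower on the TPM scale or at an adjusted p under 0.01. Eif4enif1, Eif4g2 and Eif4h lost their calls in some or all fits with 1 library left out. The values of the groups are counts and medians, and the difference between the groups was not tested. Summed levels went the other way for Eif4, at 2874 to 2910 TPM in WT and 3117 to 3250 TPM in KD. TPM values of all genes were shifted upward in KD, with a median log2 difference of 0.05, and the Eif3 median was -0.02 on that scale.

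The cap-binding group held genes that moved in both directions. Eif4e, the cap-binding protein, Eif4ebp2, which restrains it, and Eif4enif1, which carries eIF4E into the nucleus, were higher in KD together with Eif4g2 and Eif4h, while Eif4b and Eif4e2 were lower. The main scaffold and helicase genes did not pass the threshold.

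Eif4e was at 136, 132 and 128 CPM in WT and at 158, 160 and 154 CPM in KD. The groups did not overlap, and the log2 fold change was 0.25 ± 0.05 (SE, n = 3 per group, edgeR adjusted p = 0.00597). Eif4ebp2 was at 217, 198 and 206 CPM in WT and at 286, 287 and 258 CPM in KD, with a log2 fold change of 0.42 ± 0.06 (SE, n = 3 per group, edgeR adjusted p = 0.00188), close to the 0.41 of Eif2b2, which was the larger of the pair without WT replicate 2 (0.453 against 0.390). In TPM the ratio of Eif4ebp2 to Eif4e was 0.602, 0.560 and 0.587 in WT and 0.669, 0.655 and 0.631 in KD, so the transcript of the repressor was higher relative to its target in every KD library. This ratio, too, was chosen after the values were seen.

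Eif4ebp1, the best studied of the eIF4E-binding proteins, varied most between control libraries. It was at 9.89, 12.3 and 6.85 CPM in WT and at 6.49, 6.47 and 7.70 CPM in KD. WT replicate 3 lay within the KD range, and the log2 fold change of -0.49 ± 0.20 did not pass (n = 3 per group, edgeR adjusted p = 0.108). It passed with the replicate number as a block (adjusted p = 0.038) and without WT replicate 3 (log2 fold change -0.69, adjusted p = 0.0165), and without WT replicate 2 it was -0.28 (adjusted p = 0.351). Eif4ebp3 was near the detection limit, with 2.03 ± 0.200 CPM in the WT and 2.06 ± 0.300 CPM in the KD libraries (SD, n = 3), with no difference detectable at this depth. Eif4ebp2 was the most abundant of the 3 genes in every library. The ratio of Eif4ebp1 to Eif4ebp2 in TPM was 0.233 to 0.433 in WT and 0.156 to 0.202 in KD. That ratio was not fixed beforehand, carries no test and has as its denominator a gene called higher in KD.

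The eIF4G genes were not alike. Eif4g1, the principal scaffold, was at 513, 509 and 526 CPM in WT and at 522, 531 and 503 CPM in KD, with a log2 fold change of 0.01 ± 0.04 (SE, n = 3 per group, edgeR adjusted p = 0.922). Eif4g2, a relative that lacks the eIF4E-binding part and serves cap-independent initiation, was at 1739, 1745 and 1717 CPM in WT and at 1933, 2018 and 1926 CPM in KD. All KD libraries were above WT, with a log2 fold change of 0.18 ± 0.04 (SE, n = 3 per group, edgeR adjusted p = 0.0131), although it did not pass without WT replicate 2 (adjusted p = 0.054) or KD replicate 2 (0.0501). Eif4g3 had a log2 fold change of 0.04 ± 0.06 (SE, n = 3 per group, edgeR adjusted p = 0.611).

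Among the helicase genes, Eif4a1 was at 588, 585 and 586 CPM in WT and at 602, 605 and 618 CPM in KD. The libraries did not overlap but the log2 fold change was only 0.05 ± 0.04 (SE, n = 3 per group, edgeR adjusted p = 0.358). Eif4a2, the form common in brain, was at 432, 445 and 428 CPM in WT and at 420, 467 and 445 CPM in KD, with a log2 fold change of 0.03 ± 0.05 (SE, n = 3 per group, edgeR adjusted p = 0.697). Eif4a3, whose product is a core part of the exon junction complex, had a log2 fold change of 0.11 ± 0.06 (SE, n = 3 per group, edgeR adjusted p = 0.190), and it passed on the TPM scale alone (limma adjusted p = 0.0394) and in the blocked fit with length and GC offsets.

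The cofactors Eif4b and Eif4h both stimulate the helicase, and they differed in direction. Eif4b was at 324, 307 and 312 CPM in WT and at 280, 277 and 271 CPM in KD, for a log2 fold change of -0.19 ± 0.04 (SE, n = 3 per group, edgeR adjusted p = 0.0150), which did not pass without WT replicate 1 (adjusted p = 0.0572) or KD replicate 2 (0.0541), nor on the TPM scale (limma adjusted p = 0.0611). Eif4h was at 276, 270 and 270 CPM in WT and at 306, 297 and 297 CPM in KD, for a log2 fold change of 0.14 ± 0.04 (SE, n = 3 per group, edgeR adjusted p = 0.0373). It lost the threshold whenever any 1 library was left out (adjusted p from 0.0599 to 0.121).

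Eif4enif1 had a log2 fold change of 0.18 ± 0.05 (SE, n = 3 per group, edgeR adjusted p = 0.0338), and leaving out any library but KD replicate 3 ended the call (adjusted p from 0.0605 to 0.109). Eif4e2, a cap-binding relative of eIF4E that acts in repression, was at 97.3, 103 and 99.0 CPM in WT and at 89.8, 88.1 and 90.5 CPM in KD, with a log2 fold change of -0.16 ± 0.05 (SE, n = 3 per group, edgeR adjusted p = 0.0424). Every omission of 1 library ended that call (adjusted p from 0.0572 to 0.143), and on the TPM scale the groups overlapped, at 85.3, 91.7 and 90.8 TPM in WT and 86.2, 88.2 and 92.2 TPM in KD (limma adjusted p = 0.941). Eif4e3 had fractional counts in all 6 libraries and a log2 fold change of -0.10 ± 0.12 (SE, n = 3 per group, edgeR adjusted p = 0.571).

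**Figure D3:**
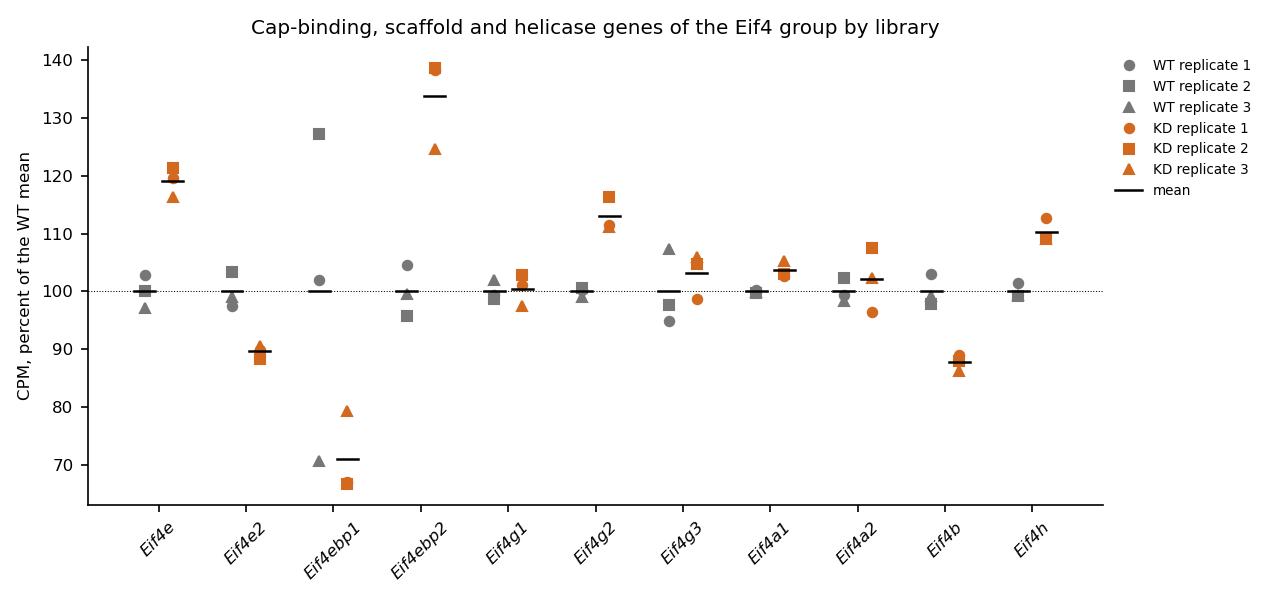
CPM of 11 Eif4 genes in each library, as a percent of the WT mean of that gene (vertical axis), with grey symbols for WT, orange symbols for KD, one shape per replicate number and a black bar for the mean of 3 libraries. Eif4ebp2, Eif4e, Eif4g2 and Eif4h lie above the WT libraries, Eif4b and Eif4e2 lie below them, and Eif4ebp1 shows a wide spread in WT.

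The genes of eIF2, the carrier of the initiator tRNA, gave no call. Eif2s1, the α subunit that the stress kinases phosphorylate, was at 53.0, 53.9 and 47.5 CPM in WT and at 49.7, 50.9 and 57.5 CPM in KD, with a log2 fold change of 0.03 ± 0.08 (SE, n = 3 per group, edgeR adjusted p = 0.780). Eif2s2, the β subunit, was at 128, 132 and 115 CPM in WT and at 130, 126 and 120 CPM in KD, with a log2 fold change of 0.01 ± 0.06 (SE, n = 3 per group, edgeR adjusted p = 0.935). Both subunit genes overlapped between groups. Eif2a and Eif2d encode separate proteins that can deliver initiator tRNA without eIF2. Eif2a was at 56.1, 52.8 and 50.01 CPM in WT and at 51.5, 49.5 and 43.8 CPM in KD (log2 fold change -0.14 ± 0.07, SE, n = 3 per group, edgeR adjusted p = 0.216). Eif2d was at 36.7, 38.2 and 41.9 CPM in WT and at 43.0, 44.2 and 43.2 CPM in KD. Its libraries did not overlap, the log2 fold change was 0.16 ± 0.06 (SE, n = 3 per group, edgeR adjusted p = 0.0986), and it passed without WT replicate 3 (log2 fold change 0.22, adjusted p = 0.0342).

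Within eIF2B, a complex of products from 5 genes, only Eif2b2 passed the threshold. Eif2b2, the β subunit, was at 18.8, 20.1 and 17.8 CPM in WT and at 26.3, 25.4 and 23.5 CPM in KD. All KD libraries were higher, with a log2 fold change of 0.41 ± 0.08 (SE, n = 3 per group, edgeR adjusted p = 0.00848), a level 32.7% above WT. Eif2b5, the catalytic subunit, was at 68.8, 82.4 and 74.9 CPM in WT and at 66.4, 68.6 and 68.4 CPM in KD. In CPM its highest KD library was just below its lowest WT library, while in TPM the groups overlapped. Its log2 fold change of -0.15 ± 0.07 did not pass (n = 3 per group, edgeR adjusted p = 0.141). Eif2b1, Eif2b3 and Eif2b4 had log2 fold changes of -0.12, 0.07 and -0.10, with overlapping libraries. In WT, Eif2b2 was the least abundant of the 5 transcripts at 28.6 ± 1.34 TPM (SD, n = 3), overlapping with Eif2b3 at 29.8 ± 1.19 TPM, and in KD it reached 39.5 ± 2.84 TPM, beside 39.2 ± 0.813 TPM for Eif2b1.

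Of the kinases of eIF2α, Eif2ak3 alone passed the threshold. Eif2ak3 encodes PERK, the sensor of unfolded protein in the endoplasmic reticulum, and was at 30.8, 30.3 and 28.1 CPM in WT and at 36.7, 36.9 and 37.3 CPM in KD. The KD libraries were close together and above all WT libraries, with a log2 fold change of 0.31 ± 0.06 (SE, n = 3 per group, edgeR adjusted p = 0.00734). Eif2ak1, the heme-regulated kinase, was the most abundant of the group at 69.4 ± 2.80 TPM in WT and 78.0 ± 5.46 TPM in KD (SD, n = 3). On the CPM scale it was at 82.9, 89.9 and 87.9 in WT and at 86.4, 98.7 and 98.1 in KD, with a log2 fold change of 0.12 ± 0.07 (SE, n = 3 per group, edgeR adjusted p = 0.213).

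Eif2ak4, or GCN2, the sensor of amino acid shortage, was at 35.6, 38.3 and 37.1 CPM in WT and at 34.1, 37.3 and 35.5 CPM in KD (log2 fold change -0.05 ± 0.06, SE, n = 3 per group, edgeR adjusted p = 0.562). Eif2ak2, or PKR, the sensor of double-stranded RNA, was at 10.8, 12.96 and 11.96 CPM in WT and at 12.9, 14.2 and 12.1 CPM in KD (log2 fold change 0.13 ± 0.11, SE, n = 3 per group, edgeR adjusted p = 0.418). The libraries of both genes overlapped. Eif2ak2 had a fractional count in 1 library. Whether the difference of Eif2ak3 exceeded those of the other kinases was not tested.

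**Figure D4:**
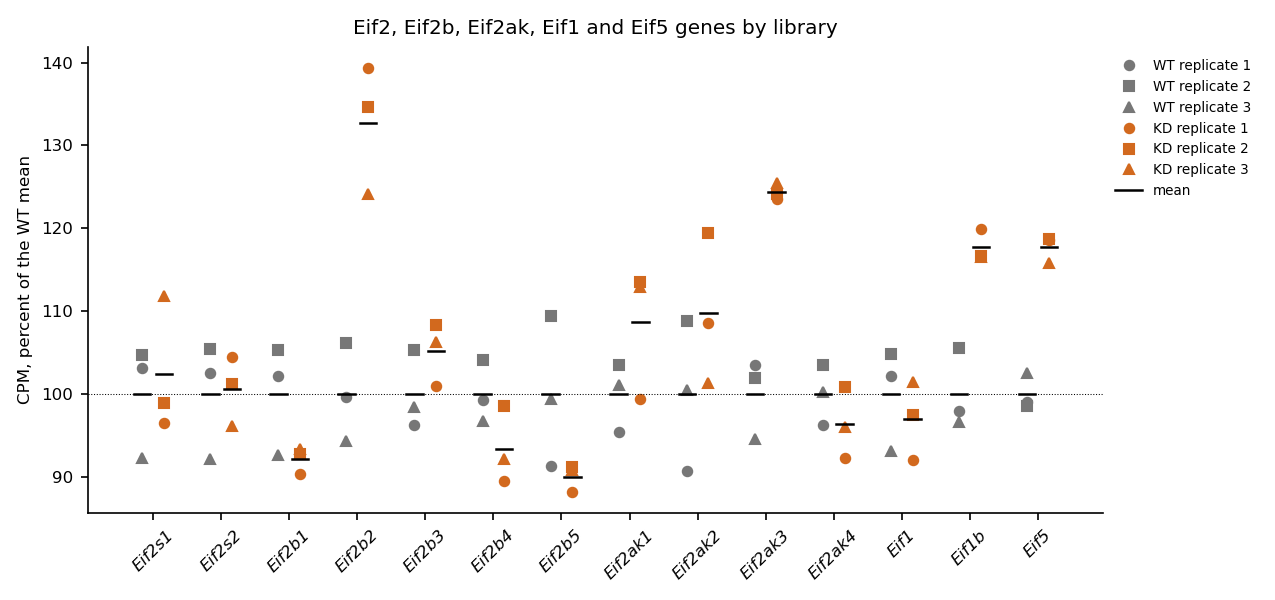
CPM of Eif2, Eif2b, Eif2ak, Eif1 and Eif5 genes in each library, as a percent of the WT mean of that gene (vertical axis), with grey symbols for WT, orange symbols for KD, one shape per replicate number and a black bar for the mean of 3 libraries. Eif2b2, Eif2ak3, Eif1b and Eif5 lie above all WT libraries, whereas Eif2s1 and Eif2s2 overlap with them.

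The factors of start codon choice and subunit joining held 2 further increases. Eif1b, a close relative of Eif1, was at 130, 140 and 128 CPM in WT and at 159, 154 and 154 CPM in KD, with no overlap and a log2 fold change of 0.24 ± 0.05 (SE, n = 3 per group, edgeR adjusted p = 0.0112). Eif5, the GTPase activator of eIF2, was at 261, 260 and 270 CPM in WT and at 313, 313 and 305 CPM in KD, also with no overlap, and its log2 fold change was 0.24 ± 0.04 (SE, n = 3 per group, edgeR adjusted p = 0.00544).

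Eif1, the gatekeeper of start codon choice, was at 259, 265 and 236 CPM in WT and at 233, 247 and 257 CPM in KD, with overlapping libraries and a log2 fold change of -0.04 ± 0.06 (SE, n = 3 per group, edgeR adjusted p = 0.624). Its counts were fractional in all 6 libraries, so its level is uncertain. In TPM, Eif1b was at 0.777, 0.817 and 0.843 of Eif1 in WT and at 1.06, 0.973 and 0.935 of it in KD. That ratio was not fixed beforehand, carries no test and has as its numerator a gene called higher in KD. Eif1ax, the X-linked eIF1A gene, was above WT in all KD libraries with a log2 fold change of 0.09 ± 0.04 (SE, n = 3 per group, edgeR adjusted p = 0.157), and Eif1a and Eif1ad overlapped, with log2 fold changes of -0.02 and 0.14.

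Eif5a, known for easing ribosomes past difficult peptide bonds during elongation, was the most abundant of all the genes at 868 ± 40.3 TPM in WT and 828 ± 3.15 TPM in KD (SD, n = 3). It was at 445, 479 and 429 CPM in WT and at 412, 411 and 422 CPM in KD. The groups did not overlap, but the log2 fold change of -0.12 ± 0.05 did not pass (n = 3 per group, edgeR adjusted p = 0.113). Eif5b, the GTPase of subunit joining, was at 140, 145 and 150 CPM in WT and at 139, 138 and 126 CPM in KD (log2 fold change -0.11 ± 0.05, SE, n = 3 per group, edgeR adjusted p = 0.164). Both genes had fractional counts in all 6 libraries. Eif6, which keeps large subunits from joining early, was at 44.98, 50.1 and 41.6 CPM in WT and at 46.1, 51.1 and 48.0 CPM in KD (log2 fold change 0.09 ± 0.08, SE, n = 3 per group, edgeR adjusted p = 0.449). Eif5a2 had a log2 fold change of 0.00.

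Levels per transcript length spanned more than the fold changes did. Mean WT levels ran from 3.83 TPM for Eif3j2 to 868 TPM for Eif5a, and the 54 genes summed to 8709 to 8832 TPM in WT and 8884 to 9120 TPM in KD. Within Eif4, Eif4a1 led at 735 ± 10.1 TPM in WT and 791 ± 3.36 TPM in KD, followed by Eif4g2, Eif4a2 and Eif4h. Within Eif3 the order from the top was Eif3h, Eif3f, Eif3k, Eif3e, Eif3i, Eif3c and Eif3l, and only Eif3l and Eif3g were neighbours whose WT libraries overlapped. Eif4a3 overlapped with Eif4e, Eif4e2 with Eif4ebp2, Eif2d with Eif2s1, Eif2ak4 with Eif2ak3 and Eif1ad with Eif1a. All other neighbours within a family were apart in the WT libraries, with Eif2b2 and Eif2b3 excepted as given above. In KD, Eif3f (349 ± 12.2 TPM) and Eif3k (339 ± 8.09 TPM, SD, n = 3) came within 1 SD of each other, where in WT they had been at 472 ± 17.4 and 345 ± 3.87 TPM.

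**Figure D5:**
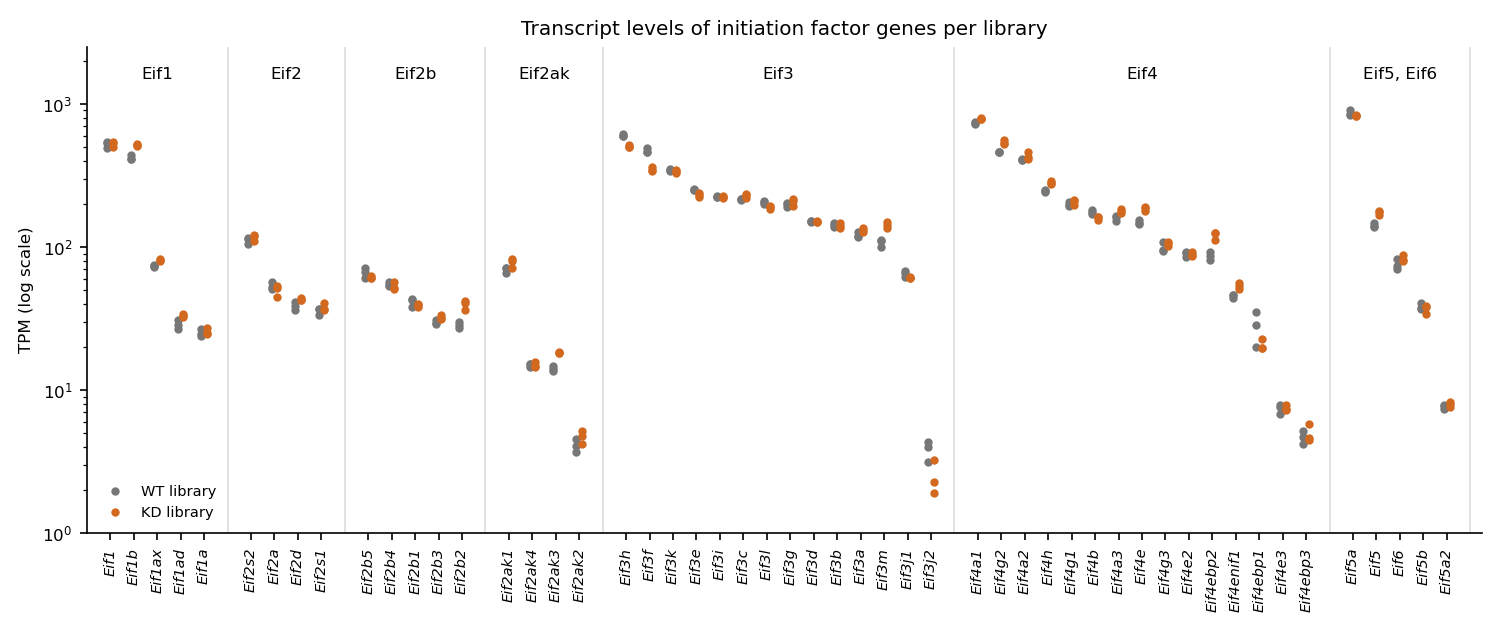
TPM of each initiation factor gene tested (vertical log axis) in the 3 WT libraries (grey) and the 3 KD libraries (orange), ordered within each family by the WT mean. Levels run from 3.83 TPM for Eif3j2 to 868 TPM for Eif5a in WT, and Eif3f and Eif3k meet in KD.

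Other genes of the initiation pathway were read from a list of 31, of which 30 were in the table and all 30 were tested. In KD 5 were higher (Abce1, Mknk1, Pabpc4, Paip2 and Rps6kb1) and 3 were lower (Atf4, Impact and Pabpc1), with a median log2 fold change of -0.04. These 8 of 30 are to be read against the 12.0% of all genes that were higher and the 11.9% that were lower, 24.0% in all, and are near that share. Gcn1l1, an older symbol of Gcn1, was the entry without a row.

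Impact, an inhibitor of the activation of GCN2, was at 63.2, 67.3 and 69.3 CPM in WT and at 45.1, 44.2 and 45.1 CPM in KD. This was a log2 fold change of -0.57 ± 0.06 (SE, n = 3 per group, edgeR adjusted p = 0.000488), with the groups far apart. Mknk1, a kinase of eIF4E, was at 15.3, 18.1 and 18.9 CPM in WT and at 21.9, 23.4 and 24.8 CPM in KD (log2 fold change 0.42 ± 0.10, SE, n = 3 per group, edgeR adjusted p = 0.0164). Rps6kb1, the S6 kinase that phosphorylates Eif4b protein, was at 61.1, 59.3 and 59.1 CPM in WT and at 77.0, 74.7 and 77.5 CPM in KD (log2 fold change 0.35 ± 0.05, SE, n = 3 per group, edgeR adjusted p = 0.0019). Atf4, whose mRNA is translated when eIF2α is phosphorylated, had a log2 fold change of -0.32 ± 0.10 (SE, n = 3 per group, edgeR adjusted p = 0.0475), and the stress target genes Ddit3 and Trib3 were at -0.32 and -0.31 without passing (adjusted p = 0.0766 and 0.398). Mtor and Larp1, which act on oligopyrimidine mRNAs, were at -0.01 and -0.09 and did not pass (adjusted p = 0.885 and 0.274).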

How the data were processed

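RNA-seq of 3 WT and 3 KD libraries was analysed, grouped by sample titles. The control columns are headed Ctrl and were matched by number to the WT titles. The submitters' processing notes name HISAT2 2.2.1, Bowtie2 2.4.5 and RSEM 1.3.1 with GRCm38 (mm10), and the annotation is not given in the sources used here. The authors deposited an estimated count per gene, which can be fractional where reads are shared, and TPM values, which they scaled by transcript length. The 12 columns of FPKM and group averages in the deposited table were not used.

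Estimated counts were rounded and tested over 13669 genes with edgeR 4.0.16 in R 4.3.3 (TMM scaling, filterByExpr with a minimum count of 10, quasi-likelihood F-test, Benjamini-Hochberg adjustment, threshold 0.05). SE was taken as |log2 fold change| over √F. CPM used TMM-scaled totals. Levels between genes were compared in TPM only. Replicates differed by 4.57 to 9.05 chi-square units per degree of freedom, more than sampling noise. Deviations of same-numbered libraries from the group means correlated over genes at 0.351, 0.320 and 0.178, and those of differently numbered libraries at -0.276 to -0.018. The labels do not say that the numbers pair the libraries, and pairing was not tested. The main fit did not use the numbers, and a fit with them as a block is given beside it.

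Library values were printed for the genes with the largest changes in each family, the most abundant gene of each family and genes fixed by name. Library values of Eif3e, Eif3j1, Eif3j2, Eif3k, Eif3l, Eif4e2 and Eif4h fall outside this rule and were chosen after they were seen. The members and lists were chosen with earlier results of these data known, and no test over a list was made. Alternatives (3 scalings, 2 filters, DESeq2 1.42.0, limma 3.58.1 voom, limma on log2(TPM + 1), length and GC offsets, the replicate block, left-out libraries and other thresholds) are described in the closing section. Scripts were tested on simulated data.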

Additional observations from a re-analysis of the deposited data

How the results depend on the processing

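Same-numbered libraries deviated alike from their group means, but the labels do not say that the replicate numbers pair the libraries. With the replicate number as a block, all 16 calls were kept, Eif3j2 (adjusted p = 0.0114) and Eif4ebp1 (0.038) were added, 10 genes were higher and 8 were lower, and no other call of an initiation factor gene changed. Over all genes, that fit called 2539 higher and 2470 lower, against 1646 and 1631 without the block. Together with length and GC offsets the block gave 11 lower genes, and it added Eif2a, Eif2b5, Eif2d, Eif3j2, Eif4a3, Eif4ebp1 and Eif5b to the calls.

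Of the 16 calls, 16 were kept under RLE scaling, the stricter filter and limma-voom, 15 without a filter and with length and GC offsets, 14 under upper quartile and under total count scaling, 13 by DESeq2 and 12 on log2(TPM + 1). Eif3l and Eif4e2 were lost under total count scaling, by DESeq2 and on log2(TPM + 1), Eif4e2 also without a filter, Eif4enif1 under upper quartile scaling, by DESeq2 and with the offsets, Eif4h under upper quartile scaling, and Eif3e and Eif4b on log2(TPM + 1). On that last scale 2 genes were lower, and 65.9% of all calls were higher against 50.2% by edgeR on counts. At an adjusted p under 0.01, 6 genes were higher and 2 lower. At an unadjusted p under 0.05 with a 1.2-fold change 4 were higher and 4 lower, the latter with Eif3j2 and Eif4ebp1 among them. Leaving out 1 library gave 7 to 9 higher and 3 to 7 lower genes. Over all genes, these fits called 779 to 1612 higher and 797 to 1583 lower, against 1646 and 1631 in the main fit. Eif1b, Eif2ak3, Eif2b2, Eif3f, Eif3h, Eif3m, Eif4e, Eif4ebp2 and Eif5 kept their calls in every such fit. Without both replicate 2 libraries, with 4 left, 0 genes were higher and 1, Eif3f (adjusted p = 0.0368), was lower. Calls fell over all genes too, to 135 higher and 93 lower in that fit.

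Medians moved with the scale. On log2(TPM + 1) they were 0.142 for Eif1, 0.0725 for Eif2, -0.0250 for Eif3 and 0.0969 for Eif4. Under upper quartile and total count scaling, Eif3 was at -0.101 and -0.0585 and Eif4 at 0.0235 and 0.0665. With length and GC offsets, first alone and then blocked, Eif2 was at -0.0319 and -0.0318, Eif3 at -0.0534 and -0.0535, and Eif5 with Eif6 at -0.0708 and -0.0713. Without both replicate 2 libraries Eif2 was at 0.0674, Eif3 at -0.0575 and Eif4 at 0.0163. Leaving out 1 library gave -0.0337 to 0.0575 for Eif2, 0.0777 to 0.172 for Eif2ak, -0.0243 to 0.0463 for Eif5 with Eif6 and 0.0427 to 0.0696 for Eif4.

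The sign turned only for genes that did not pass the threshold. On log2(TPM + 1) Eif1 was at 0.0118, Eif1a at 0.0271 and Eif4e3 at 0.00866. With length and GC offsets, first alone and then blocked, Eif2s1 was at -0.0111 and -0.0128, Eif2s2 at -0.0527 and -0.0508, Eif4a2 at -0.0336 and -0.0348 and Eif5a2 at -0.0708 and -0.0713. Under upper quartile scaling Eif2s2 was at -0.0121, Eif3g at -0.0130, Eif4g1 at -0.0138, Eif5a2 at -0.0185 and Eif4ebp3 at -0.00065. Without both replicate 2 libraries Eif3g was at -0.00185, Eif4g1 at -0.0202 and Eif5a2 at -0.0028, and under the stricter filter Eif5a2 was at -2.6e-05. Leaving out 1 library gave -0.0813 to 0.0295 for Eif1a, -0.0322 to 0.0751 for Eif2s1, -0.0467 to 0.0473 for Eif2s2, -0.0312 to 0.0411 for Eif3g, -0.00782 to 0.0696 for Eif4a2, -0.107 to 0.0992 for Eif4ebp3, -0.00942 to 0.0302 for Eif4g1 and -0.0243 to 0.0463 for Eif5a2. The causes of these shifts were not tested.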
